A study of Homo sapiens with 12 samples.

Results

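SLC5A3 encodes SMIT1, the sodium-coupled transporter that brings myo-inositol into cells, and 9 further genes of inositol and organic osmolyte handling were read beside it. The 10 genes, of 19677 listed in the count tables, were SLC5A3, its overlapping neighbour MRPS6, the inositol genes SLC2A13, ISYNA1, IMPA1 and IMPA2, the osmolyte genes SLC6A6, SLC6A12 and AKR1B1, and the transcription factor gene NFAT5. They were chosen by symbol, and SLC5A3 was chosen because its level was lower with ascites and with bezafibrate. Its own responses are therefore given as a description, without a test. Of the 10 genes, 9 passed the filter on low counts and SLC6A12 did not.

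RNA had been sequenced from CAOV3, an established line grown from a human high-grade serous ovarian cancer, wild type in genotype per the labels. All cells grew in DMEM with 10% fetal bovine serum. There were 4 groups of 3 libraries: control (DMSO, the solvent), ascites (10% ovarian cancer ascites, the abdominal fluid of patients with this disease, with DMSO), bezafibrate (200 uM, a fibrate drug that activates PPAR receptors) and combination (the same ascites and bezafibrate doses together). Treatment lasted 16 hours. All libraries came from 1 cell line, the number of ascites donors is not given in the sources used here, and the labels name DMSO in the control and ascites groups only.

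Cells use myo-inositol in a pair of ways. It is the head group of the phosphatidylinositol lipids, from which phospholipase C releases the second messenger inositol trisphosphate, and it is also one of the compatible organic osmolytes, with taurine, betaine and sorbitol, that cells collect when the medium is hypertonic. Inositol is imported by SMIT1 and other transporters or made from glucose 6-phosphate, and NFAT5 is the transcription factor known for raising the osmolyte transporters and aldose reductase under hypertonic stress.

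Total counts ranged from 11831093 to 18762759 per library, and 12470 genes were tested. Levels are given as CPM (counts scaled to TMM library sizes in edgeR), as mean ± SD over n = 3 libraries. Statements that groups do not overlap describe 3 libraries against 3. The share of all genes that separate in this way was not counted, so such separation alone is not read as an effect. Whether the libraries came from separate cultures is not stated, so p-values measure the spread between these libraries, which may be technical. Combination replicate 3 stood apart on the second principal component, at -22.4 against -4.37 to 9.84 for the other libraries. The keratins KRT8 and KRT18 were abundant in the control libraries, at 3005 and 1784 CPM, while the defining serous markers PAX8, WT1, MUC16 and SOX17 had 122, 15, 10 and 0 counts over all 12 libraries. Of 9 tested epithelial and serous markers, 5 were called higher in bezafibrate against control (CDH1, KRT7, CLDN4, KRT19 and PAX8) and 4 in the combination against ascites. Over all genes 10.1% and 10.5% were called higher in these comparisons. The summed level of all 15 was 6273 to 6403 CPM in control, 6430 to 6601 in ascites, 6597 to 6931 in bezafibrate and 7059 to 7178 in the combination. Of 14 blood cell markers 9 had no count in any library. Their summed level was 72.6 to 75.9 CPM in control, 74.6 to 82.8 in ascites, 89.5 to 94.1 in bezafibrate and 92.3 to 100.3 in the combination, nearly all of it CD68 (72.5 CPM in control and 91.0 with bezafibrate), while the mean of each other blood marker was below 1 CPM in every group. The summed level of 8 fibroblast markers, of which FAP had no count, was 231.8 to 244.1 CPM in control, 229.2 to 236.2 in ascites, 187.0 to 199.5 in bezafibrate and 184.1 to 199.2 in the combination. All 4 that were tested (PDGFRA, COL1A1, LUM and COL3A1) were called lower in bezafibrate against control and in the combination against ascites. Over all genes 7.55% and 7.29% were called lower there. The epithelial and fibroblast sums and CD68 moved with the drug, and their part in the drug results was not tested. All 5 fibrate target genes read as a check of the drug (PDK4, ANGPTL4, PLIN2, CPT1A and FABP4) were higher with bezafibrate than without it.

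SLC5A3 and MRPS6 (which encodes a protein of the small subunit of the mitochondrial ribosome) lie on the plus strand of chromosome 21 and share their first exon. In the count tables they are ENSG00000198743.7 and ENSG00000243927.6. In GENCODE v29 on GRCh38, which holds earlier versions of both identifiers, SLC5A3 spans chr21:34073570-34106262 and MRPS6 spans chr21:34073224-34143034. The SLC5A3 transcript has 2 exons, of 176 and 11400 nt, and its whole coding sequence of 2154 nt is in the second one, which lies inside an intron of MRPS6. The MRPS6 transcript has 3 exons, of 223, 140 and 627 nt. The 176 nt that both use are 1.52% of the SLC5A3 transcript and 17.8% of the MRPS6 transcript. A read from the shared exon can come from either gene, and how such reads were divided is not given in the sources used here.

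**Figure D1:**
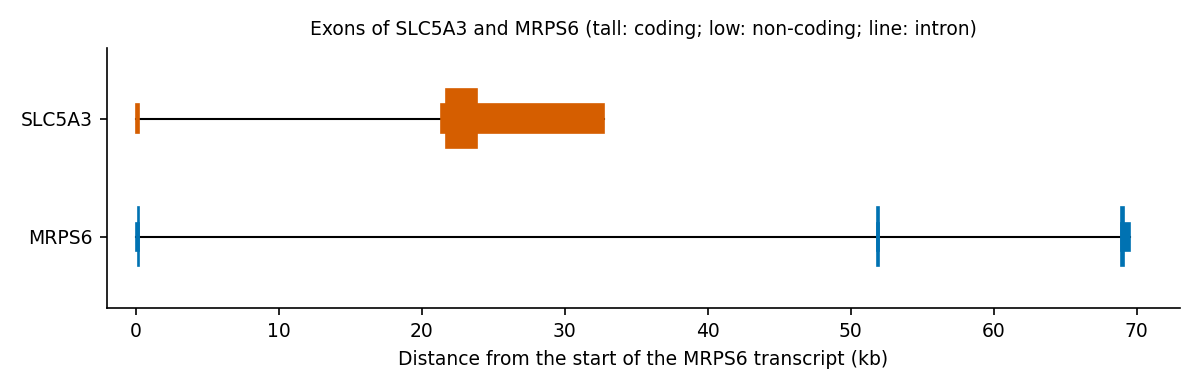
Exons of the SLC5A3 and MRPS6 transcripts against the distance in kb from the start of the MRPS6 transcript. Coding parts of exons are tall, non-coding parts low and introns lines. Both transcripts share the first exon. The second exon of SLC5A3, from 21.3 to 32.7 kb, lies between the first exon of MRPS6 and its second one at 51.8 kb. Of its 11400 nt, 2154 are coding.

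RefSeq (GRCh38.p14) gives SLC5A3 and MRPS6 an identical promoter window. Its 250 bases before the start are shown because RefSeq starts both genes from it. The stretch is chr21:34073328-34073577 on the plus strand, with a GC content of 84.8%. The GENCODE v29 transcripts described above start inside it, at 34073523 for MRPS6 and 34073570 for SLC5A3, so its end is exon there. Capitals mark GC boxes (GGGCGG, the Sp1-type motif, searched on both strands, with some matches touching or overlapping), of which the window holds 9. At least 1 GC box was found in 45.0% of the 35116 windows of 300 bases in the RefSeq table. The core of the NFAT motif, GGAAA, searched on both strands, is in 61.2% of all windows and not in this one.
SLC5A3 and MRPS6: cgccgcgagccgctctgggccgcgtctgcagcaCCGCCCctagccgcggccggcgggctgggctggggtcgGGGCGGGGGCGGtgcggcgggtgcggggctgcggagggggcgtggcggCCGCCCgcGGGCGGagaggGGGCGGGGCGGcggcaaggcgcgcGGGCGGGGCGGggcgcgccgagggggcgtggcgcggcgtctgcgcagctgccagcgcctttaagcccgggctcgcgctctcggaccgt

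SLC5A3 was highest in the control libraries and lower in each treated group. The control libraries stood at 136.4, 136.2 and 129.5 CPM (134.0 ± 3.90), and the ascites libraries at 120.3, 107.8 and 114.8 CPM (114.3 ± 6.27). With bezafibrate the values were 107.9, 104.5 and 112.5 CPM (108.3 ± 4.01), and with both 94.4, 101.7 and 106.2 CPM (100.8 ± 5.98). All control libraries were above all treated ones, and all combination libraries were below all ascites libraries. In the order control, ascites, bezafibrate, combination, the neighbours ascites and bezafibrate overlapped, as did bezafibrate and combination. As these are bulk counts, fewer cells of a kind and less RNA per cell cannot be told apart.

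On the log2 scale SLC5A3 differed by -0.23 (SE 0.045) between ascites and control and by -0.31 (SE 0.044) between bezafibrate and control. The combination differed from control by -0.42 (SE 0.046). These 3 differences share the control libraries. With the other treatment present, the difference was -0.11 (SE 0.046) for ascites, combination against bezafibrate, and -0.19 (SE 0.046) for the drug, combination against ascites. The interaction, which is the ascites difference with the drug minus that without it, was 0.12 (SE 0.064). The ascites difference with the drug present rested most on 1 library: without combination replicate 1 it was -0.06, and without combination replicate 3, the library that stood apart, it was -0.15.

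**Figure D2:**
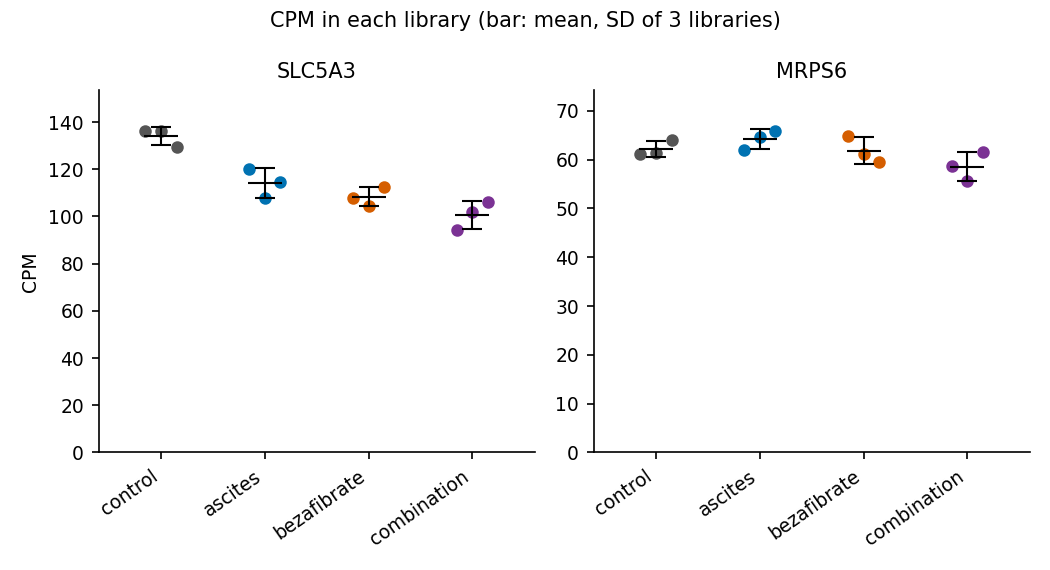
CPM of SLC5A3 and MRPS6 in each of the 12 libraries by group, with points for libraries and bars for the mean and SD of 3. The 3 control libraries of SLC5A3, from 129.5 to 136.4 CPM, are above all 9 treated libraries, while MRPS6 stays between 55.5 and 65.9 CPM.

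MRPS6 stood at 61.2, 61.4 and 64.0 CPM in control (62.2 ± 1.58), 61.9, 64.6 and 65.9 with ascites (64.2 ± 2.03), 64.9, 61.2 and 59.4 with bezafibrate (61.8 ± 2.78) and 58.7, 55.5 and 61.5 with both (58.6 ± 2.97). Control overlapped with ascites and with bezafibrate, and the combination lay below ascites without overlap. MRPS6 was not called with ascites (log2 difference 0.05, SE 0.051, 95% interval -0.06 to 0.15, adjusted p = 0.956 in edgeR's quasi-likelihood test with Benjamini-Hochberg adjustment) or with bezafibrate (-0.01, SE 0.050, interval -0.11 to 0.09, edgeR adjusted p = 0.959). The combination against ascites gave -0.13 (SE 0.051, interval -0.24 to -0.03, edgeR adjusted p = 0.0723). That value passed the threshold without combination replicate 3 (-0.16, edgeR adjusted p = 0.0267) and in 2 other settings given in the closing section. None of the 33 genes listed for the small subunit of the mitochondrial ribosome, MRPS6 included, was called by edgeR or DESeq2 in bezafibrate against control or in the combination against ascites, with 1 and 4 at an unadjusted edgeR p under 0.05. Over all 12470 genes 17.6% and 17.8% were called and 3453 and 3521 had such an unadjusted p. MRPS35 was called higher in the combination against control (0.08, edgeR adjusted p = 0.0475, not refitted under the alternatives), and for the drug averaged over ascites MRPS35 was called higher (0.06, edgeR adjusted p = 0.0347) and MRPS16 lower (-0.07, edgeR adjusted p = 0.0492). The averaged calls were lost in 9 settings for MRPS35 and 13 for MRPS16.

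The share of SLC5A3 in the summed counts of both genes was lower in each treated group than in control, and the treated groups overlapped. As SLC5A3 was chosen for its lower level with ascites and with bezafibrate, its share too is only a description. It was 68.3 ± 1.19% in control, 64.0 ± 1.80% with ascites, 63.7 ± 1.57% with bezafibrate and 63.2 ± 1.52% with both (n = 3 each). The control libraries, from 66.9% to 69.04%, were above all others, of which the highest, ascites replicate 1, stood at 66.0%. The exact 95% binomial intervals of the closest libraries overlapped: 65.0% to 68.8% for control replicate 3 and 64.1% to 67.9% for ascites replicate 1, covering counting error only. With the deposited counts of both genes added, the pair summed to 196.2 ± 2.32 CPM in control, 178.5 ± 5.28 with ascites, 170.2 ± 3.86 with bezafibrate and 159.3 ± 7.51 with both. Any read of the shared exon that was left out of both genes before deposit is missing from this sum.

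SLC5A3 has a transcript of 11576 nt, and negative ascites differences were more frequent among long transcripts. Of the 1242 tested genes with transcripts of 7512 nt or more, 69.6% had a negative difference between ascites and control, with a median of -0.03, against 40.7% of the genes up to 2166 nt. In bezafibrate against control the shares were 56.7% and 46.8%. The comparisons without the control libraries differed from these. The shares were 55.2% and 47.6% in the combination against bezafibrate, and 46.8% and 51.6%, the other way round, in the combination against ascites. With the trend over length and GC content removed, the SLC5A3 difference was -0.19 for ascites, from -0.23, and -0.30 for bezafibrate, from -0.31.

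A further route of inositol into cells moved the other way. SLC2A13 encodes HMIT, a proton-coupled myo-inositol transporter, and it rose with bezafibrate from 25.5, 30.6 and 26.3 CPM in control (27.5 ± 2.71) to 46.3, 44.3 and 44.4 CPM (45.0 ± 1.12). The ascites libraries stood at 27.6, 28.8 and 28.1 CPM (28.1 ± 0.630) and the combination at 43.5, 50.5 and 44.4 CPM (46.1 ± 3.83). All 6 libraries with the drug were above all 6 without it. The log2 fold change was 0.71 (SE 0.066, edgeR adjusted p = 5.8e-11) without ascites and 0.71 (SE 0.067, edgeR adjusted p = 1.01e-10) with it, in comparisons that share no library. SLC2A13 had the lower level of the pair per length in both groups: it stood at 3.92 CPM per kb of its transcript in control and 6.43 with bezafibrate, against 11.6 and 9.36 for SLC5A3.

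SLC2A13 had the largest rise with the drug among the 10 genes, so the 250 bases before its RefSeq start are shown, chr12:40106082-40106331 on the minus strand. Capitals mark a match, with 1 difference, to DR1, the pair of AGGTCA half-sites with 1 base between them that PPAR-RXR dimers are known to bind. The search covered both strands and was decided on after this window had been seen. The match begins at -145 from the start and differs from the motif by A13G, positions counted from 1 at the first base of the motif. Such a match, with at most 1 difference, is in 118 of 35116 windows (0.336%), and an exact one in 8. The same search found 0 in the windows of AKR1B1, which also rose with the drug, and 0 in those of ISYNA1, MRPS6 and SLC5A3. The other genes that rose with the drug had no window to search. A match describes the letters and is not evidence of binding.
SLC2A13: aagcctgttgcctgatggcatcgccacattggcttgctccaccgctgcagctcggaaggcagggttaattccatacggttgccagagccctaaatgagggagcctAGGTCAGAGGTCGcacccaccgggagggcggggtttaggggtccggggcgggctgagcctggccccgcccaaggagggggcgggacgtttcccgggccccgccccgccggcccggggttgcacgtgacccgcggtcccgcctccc

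Inositol is made by ISYNA1, the inositol-3-phosphate synthase, followed by the inositol monophosphatases IMPA1 and IMPA2, which also return inositol from the phosphates of the signalling cycle. Both phosphatases rose with the drug and the synthase was not called. IMPA2 stood at 23.7, 21.8 and 23.1 CPM in control (22.9 ± 0.970), 23.5, 22.4 and 24.4 with ascites (23.4 ± 0.987), 31.6, 31.0 and 31.5 with bezafibrate (31.4 ± 0.320) and 30.3, 29.4 and 28.4 with both (29.3 ± 0.950). Its libraries with and without the drug did not overlap, and the log2 fold change was 0.46 (SE 0.065, edgeR adjusted p = 8.49e-07) without ascites and 0.33 (SE 0.067, edgeR adjusted p = 0.000335) with it.

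IMPA1 was higher by a smaller step, from 90.1, 94.7 and 92.5 CPM in control (92.4 ± 2.28) to 101.6, 102.9 and 104.2 CPM with bezafibrate (102.9 ± 1.32). The ascites libraries had 92.2, 91.4 and 89.5 CPM (91.0 ± 1.40) and the combination 99.3, 101.3 and 102.9 CPM (101.2 ± 1.81). Again no library with the drug was as low as any without it. The log2 fold change was 0.15 in both comparisons (SE 0.040 and 0.041, edgeR adjusted p = 0.00436 and 0.00664). ISYNA1 ranged from 74.6 to 77.0 CPM in control (75.5 ± 1.28), 75.5 to 83.4 with ascites (79.6 ± 3.96), 70.9 to 80.9 with bezafibrate (75.9 ± 5.02) and 69.3 to 80.5 with both (76.1 ± 5.95). Its groups overlapped, and its log2 difference was 0.00 with bezafibrate (95% interval -0.10 to 0.11, edgeR adjusted p = 0.974) and 0.07 with ascites (interval -0.04 to 0.18, edgeR adjusted p = 0.914).

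The other osmolyte genes that could be tested rose with bezafibrate. SLC6A6, which encodes the taurine transporter TauT, stood at 128.7, 121.1 and 124.7 CPM in control (124.8 ± 3.79) and 129.8, 120.2 and 124.8 with ascites (124.9 ± 4.79), against 147.6, 149.9 and 153.4 with bezafibrate (150.3 ± 2.91) and 146.3, 146.6 and 151.3 with both (148.0 ± 2.82). The groups with and without the drug were apart in every library, with log2 fold changes of 0.27 (SE 0.038, edgeR adjusted p = 8.38e-07) and 0.24 (SE 0.039, edgeR adjusted p = 6.51e-06).

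AKR1B1 encodes aldose reductase, which makes sorbitol from glucose, and per length it was the most abundant of the 10 genes in control, at 184.0 CPM per kb. Its values were 266.4, 252.9 and 258.3 CPM in control (259.2 ± 6.79), 267.4, 265.0 and 259.8 with ascites (264.1 ± 3.91), 312.8, 302.6 and 312.4 with bezafibrate (309.3 ± 5.77) and 321.2, 291.2 and 297.4 with both (303.3 ± 15.8). The drug groups again lay above the others without overlap. The log2 fold change was 0.25 (SE 0.034, edgeR adjusted p = 2.21e-07) without ascites and 0.20 (SE 0.034, edgeR adjusted p = 1.86e-05) with it. SLC6A12, the gene of the betaine transporter BGT1, had 29 counts over all 12 libraries, from 0 to 7 in each, too few for a comparison.

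NFAT5 fell with bezafibrate, in the opposite direction to the taurine transporter and aldose reductase genes. It stood at 164.4, 168.4 and 161.4 CPM in control (164.7 ± 3.49), 156.6, 154.5 and 159.8 with ascites (157.0 ± 2.70), 141.1, 141.9 and 154.4 with bezafibrate (145.8 ± 7.42) and 132.0, 151.3 and 141.1 with both (141.5 ± 9.65). All bezafibrate libraries were below all control libraries, and all combination libraries below all ascites libraries. The log2 difference was -0.18 (SE 0.042, edgeR adjusted p = 0.00154) without ascites and -0.16 (SE 0.043, edgeR adjusted p = 0.0078) with it, and the latter missed the threshold without combination replicate 1 (-0.10, edgeR adjusted p = 0.0944). NFAT5 was not called in ascites against control (-0.07, SE 0.042, edgeR adjusted p = 0.896), where its ascites libraries lay below all control libraries. For its transcript of 13362 nt, the trend over length and GC content alone stood at -0.04 in that comparison.

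**Figure D3:**
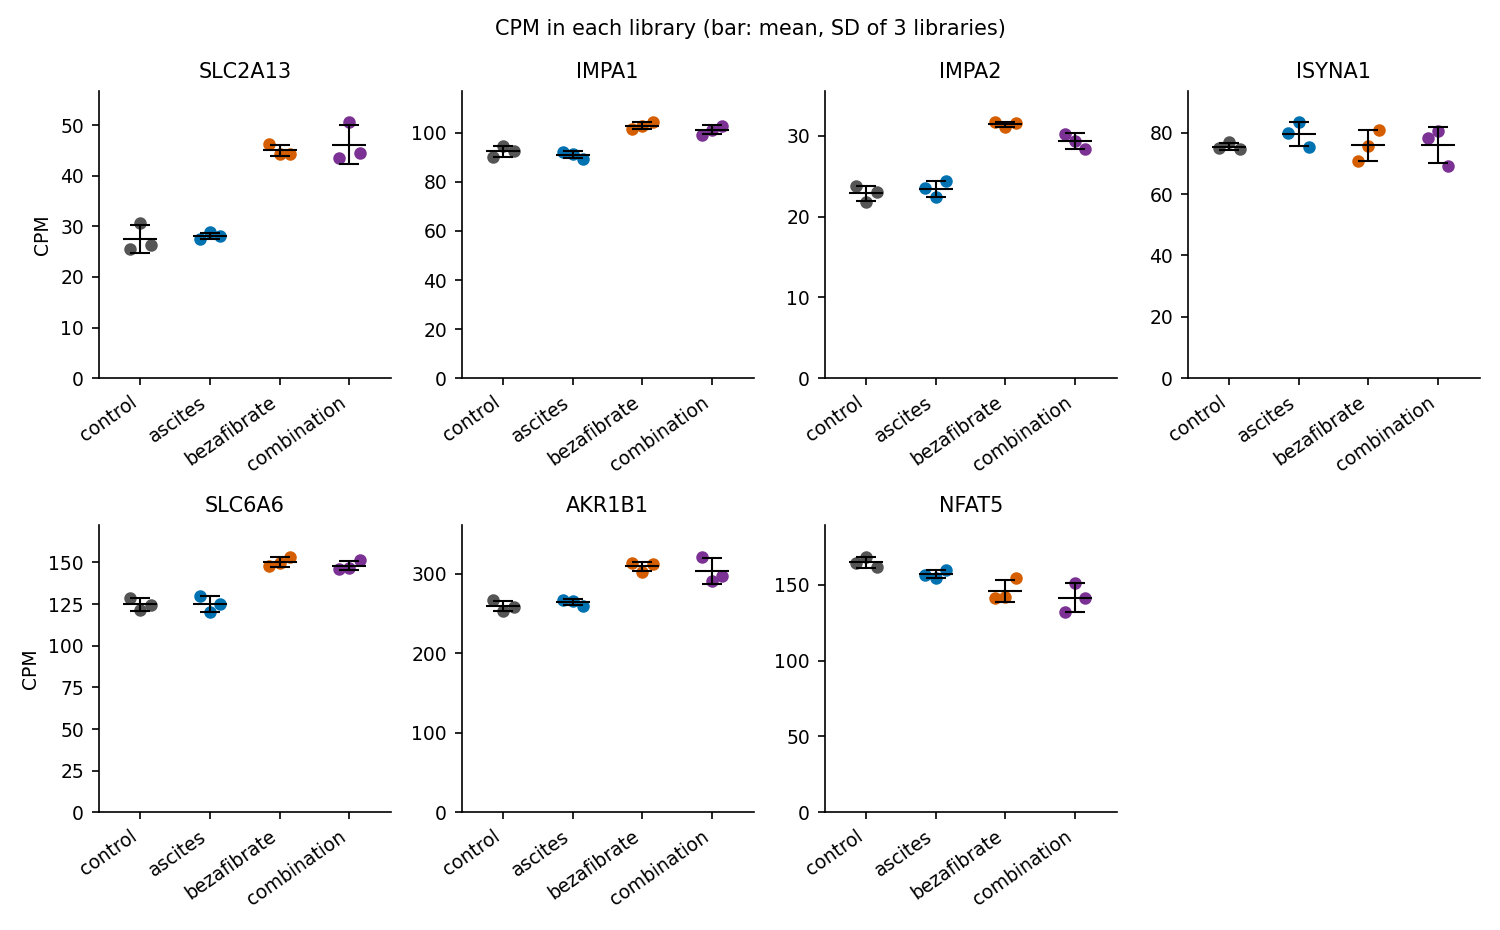
CPM of the 7 other tested genes in each of the 12 libraries by group, with points for libraries and bars for the mean and SD of 3. SLC2A13, IMPA1, IMPA2, SLC6A6 and AKR1B1 are higher in both groups with bezafibrate, NFAT5 is lower, and the groups of ISYNA1 overlap.

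Counted over the 8 tested genes other than SLC5A3, bezafibrate against control called 5 higher and 1 lower in edgeR, where 17.6% of all 12470 genes were called (10.1% higher and 7.55% lower). The combination against ascites likewise called 5 higher and 1 lower, beside 17.8% of all genes (10.5% higher and 7.29% lower). The median log2 difference of the 8 genes was 0.20 and 0.18, against -0.00 for all genes in both. In the combination against control, which reuses the combination and control libraries, 5 were called higher and 1 lower, beside 18.2% of all genes (10.3% higher and 7.96% lower). Averaged over ascites the drug also called 5 higher and 1 lower, beside 28.3% (15% higher and 13.2% lower). The call of IMPA1 in the combination against control (0.13, edgeR adjusted p = 0.0224) was lost in 6 of the alternatives, among them DESeq2, without control replicate 1 (edgeR adjusted p = 0.104), without control replicate 3 (0.0614) and without combination replicate 3 (0.0544).

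Ascites called none of these 8 genes. In ascites against control 0 of 8 were called by edgeR and by DESeq2, none had an unadjusted p under 0.05, and 0.0882% of all genes were called. In the combination against bezafibrate 0 of 8 were called by both tools, again with none at an unadjusted p under 0.05, beside 0.128% of all genes, and for ascites averaged over the drug 0 of 8 beside 0.281%. The medians were 0.03 and -0.03 in the first pair of comparisons. The interaction called 0 of 8 genes by edgeR and by DESeq2, with a lowest unadjusted p of 0.0892 (MRPS6). Over all genes it called 0% by edgeR, with 445 genes at an unadjusted p under 0.05, and 1 gene by DESeq2.

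**Figure D4:**
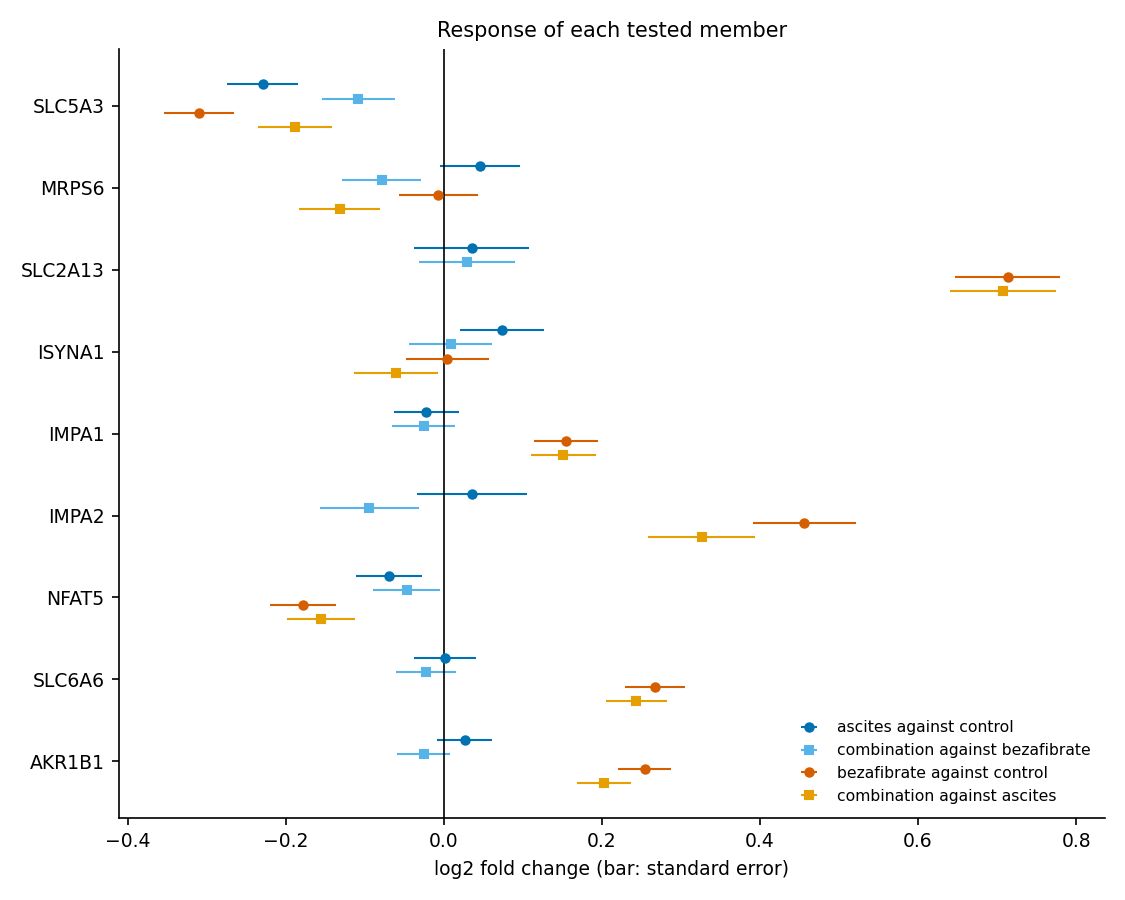
Log2 fold changes of the 9 tested genes in both ascites comparisons and both bezafibrate comparisons, with bars for the standard error. For bezafibrate, SLC5A3 and NFAT5 lie to the left of 0 and SLC2A13, at 0.71 in both comparisons, lies farthest to the right. MRPS6 (-0.01 and -0.13) also lies to the left in both, and ISYNA1 (0.00 and -0.06) in the combination against ascites, none of them called.

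The pattern of SLC5A3 over the 12 libraries was compared with that of 9354 genes averaging 10 CPM or more, by the root mean square difference of log2 CPM after each gene's own mean was subtracted. The closest were MDC1 (0.0648), a DNA damage mediator gene, UTRN (0.0650), which encodes utrophin, LGALS8 (0.0737), which encodes galectin-8, MYO10 (0.0742), an unconventional myosin gene, ROBO1 (0.0750), a SLIT receptor gene, DMXL2 (0.0773), LRIG3 (0.0776) and SAMD5 (0.0793), where the median gene stood at 0.177. As a description of the closest gene, which was chosen for its likeness over these libraries, MDC1 had 108.0, 96.8, 92.6 and 87.9 CPM in control, ascites, bezafibrate and combination. Of the 10 genes NFAT5 was the most alike, at rank 22 (0.0870). MRPS6, which shares the first exon, was at rank 2249, ISYNA1 at 5379, and the 5 genes that rose with the drug were between 7593 for IMPA1 and 9237 for SLC2A13. The 8 closest genes have transcripts of 4070 to 12339 nt. With the trend over length and GC content removed, their ranks were between 2 for UTRN and 18 for DMXL2 of 9344, and NFAT5 was at rank 50.

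Wider lists placed these genes among their pathways. Among 16 tested genes listed as kinases and phosphatases of inositol phosphates or their relatives, bezafibrate against control called 3 higher and 1 lower. The combination against ascites also called 3 higher and 1 lower, with a median of 0.10 in both. Over all genes 17.6% and 17.8% were called in these comparisons. IPMK, the inositol polyphosphate multikinase gene, rose from 52.3 CPM in control to 75.2 with bezafibrate and from 52.7 with ascites to 74.3 with both (log2 fold changes 0.52 and 0.49, edgeR adjusted p = 1.02e-10 and 6.6e-10). BPNT2, which encodes a Golgi phosphatase of the lithium-sensitive family that includes IMPA1, rose by 0.21 and 0.25 (edgeR adjusted p = 5.04e-06 and 2.52e-07). ITPKC, an inositol trisphosphate 3-kinase gene, passed the threshold in the first comparison (0.29 and 0.26, edgeR adjusted p = 0.0268 and 0.0571), and PPIP5K1, an inositol pyrophosphate kinase gene, in the second (0.11 and 0.18, edgeR adjusted p = 0.00626 in the latter). NUDT3 and NUDT4, diphosphoinositol polyphosphate phosphohydrolase genes, were called lower in 1 comparison each, NUDT3 without ascites (-0.13, edgeR adjusted p = 0.0146) and NUDT4 with it (-0.13, edgeR adjusted p = 0.0116). The interaction was not called by edgeR for any of these genes. INPP1, an inositol polyphosphate 1-phosphatase gene in the list of 5 tested genes of inositol supply and breakdown, was called in the combination against ascites (0.19, edgeR adjusted p = 0.0188) and not in bezafibrate against control (0.08, edgeR adjusted p = 0.4).

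Several of these smaller calls rested on single libraries, as edgeR adjusted p-values without 1 of them show. ITPKC missed the threshold without control replicate 2 (0.107), control replicate 3 (0.0642), bezafibrate replicate 1 (0.12) or bezafibrate replicate 2 (0.0545). NUDT3 did so without control replicate 2 (0.114) or bezafibrate replicate 2 (0.0647), and NUDT4 without ascites replicate 1 (0.0506) or combination replicate 2 (0.101). PPIP5K1 did so without ascites replicate 2 (0.0665), and INPP1 without ascites replicate 3 (0.0786) or combination replicate 3 (0.142). IPMK and BPNT2 kept their calls without any 1 library.

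All 3 genes of inositol trisphosphate receptors, ITPR1, ITPR2 and ITPR3, rose with the drug. Of 24 tested genes of phosphatidylinositol synthesis and signalling, 6 were higher and 1 lower in bezafibrate against control and 5 were higher and 1 lower in the combination against ascites, where 17.6% and 17.8% of all genes were called. ITPR1, an intracellular calcium channel gene, rose from 10.9 to 17.4 CPM and from 10.5 to 17.96 CPM (0.67 and 0.77, edgeR adjusted p = 2.55e-07 and 2.56e-08). ITPR2 (0.15 and 0.19) and ITPR3 (0.15 and 0.14) rose less, with edgeR adjusted p = 0.017 and 0.00482 for ITPR2 and 0.00125 and 0.00386 for ITPR3. The phospholipase C genes PLCD3 (0.36 and 0.30) and PLCE1 (0.31 and 0.38) were higher in both (edgeR adjusted p = 2.82e-09 and 1.21e-07 for PLCD3, 4.04e-06 and 1.08e-07 for PLCE1). The phosphoinositide kinase genes PIP4K2A (-0.14, edgeR adjusted p = 0.0142, without ascites) and PIP5K1C (-0.20, edgeR adjusted p = 0.0287, with ascites) were called lower. The call of PIP4K2A was lost without control replicate 1, control replicate 3 or bezafibrate replicate 2 (edgeR adjusted p = 0.133, 0.055 and 0.0616), and that of PIP5K1C without ascites replicate 1 or combination replicate 3 (0.152 and 0.169). The call of ITPR2 in bezafibrate against control was lost without control replicate 1, control replicate 3 or bezafibrate replicate 3 (0.0538, 0.0869 and 0.0523), and that of ITPR3 in the combination against ascites without ascites replicate 3 or combination replicate 2 (0.0509 and 0.0556).

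The NFAT5 target and osmolyte list had 10 tested genes other than SLC5A3, among them SLC6A6 and AKR1B1, and gave 3 higher and 1 lower in each drug comparison, where 17.6% and 17.8% of all genes were called. SGK1, a serum- and glucocorticoid-induced kinase gene, fell by 0.33 on the log2 scale in both (edgeR adjusted p = 0.00689 and 0.00813), the second of which missed the threshold without combination replicate 3 (-0.26, edgeR adjusted p = 0.0511). The third higher gene differed: HSPA1A in bezafibrate against control (0.16, edgeR adjusted p = 0.000688), whose reads may be divided with its near-identical copy HSPA1B, and S100A4 in the combination against ascites (0.11, edgeR adjusted p = 0.0126). The list's median was -0.02 and 0.02.

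Cell volume genes moved in both directions. Of 19 tested, 5 were higher and 2 lower in bezafibrate against control, and 4 higher and 2 lower in the combination against ascites, where 17.6% and 17.8% of all genes were called. AQP3, the gene of a water and glycerol channel, had the largest difference of the 19, from 7.07 to 27.04 CPM without ascites and from 6.97 to 27.02 CPM with it (1.94 and 1.95, edgeR adjusted p = 5.46e-18 and 7.82e-18). OXSR1, a kinase gene of the WNK pathway, rose by 0.41 and 0.47 (edgeR adjusted p = 4.24e-10 and 2.18e-11), while its relative STK39 fell by 0.20 and 0.17 (edgeR adjusted p = 0.0082 and 0.0314). SLC12A2, the gene of the sodium-potassium-chloride importer NKCC1, fell by 0.29 and 0.24 (edgeR adjusted p = 3.49e-07 and 2.9e-05), and SLC12A4, the gene of the potassium-chloride exporter KCC1, rose by 0.33 and 0.32 (edgeR adjusted p = 2.38e-05 and 6.84e-05). WNK4 rose by 0.27 and 0.17 (edgeR adjusted p = 0.000598 and 0.0482). The second WNK4 call was lost without any 1 of the ascites, bezafibrate or combination libraries other than combination replicate 3, at 0.13 to 0.19 and edgeR adjusted p from 0.055 to 0.202. The calls of STK39 were lost without control replicate 2 (0.0657) or bezafibrate replicate 3 (0.0589) in the first comparison. In the second they were lost without ascites replicate 1 (0.0647), ascites replicate 3 (0.193), combination replicate 1 (0.088) or combination replicate 2 (0.226), all edgeR adjusted p.

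**Figure D5:**
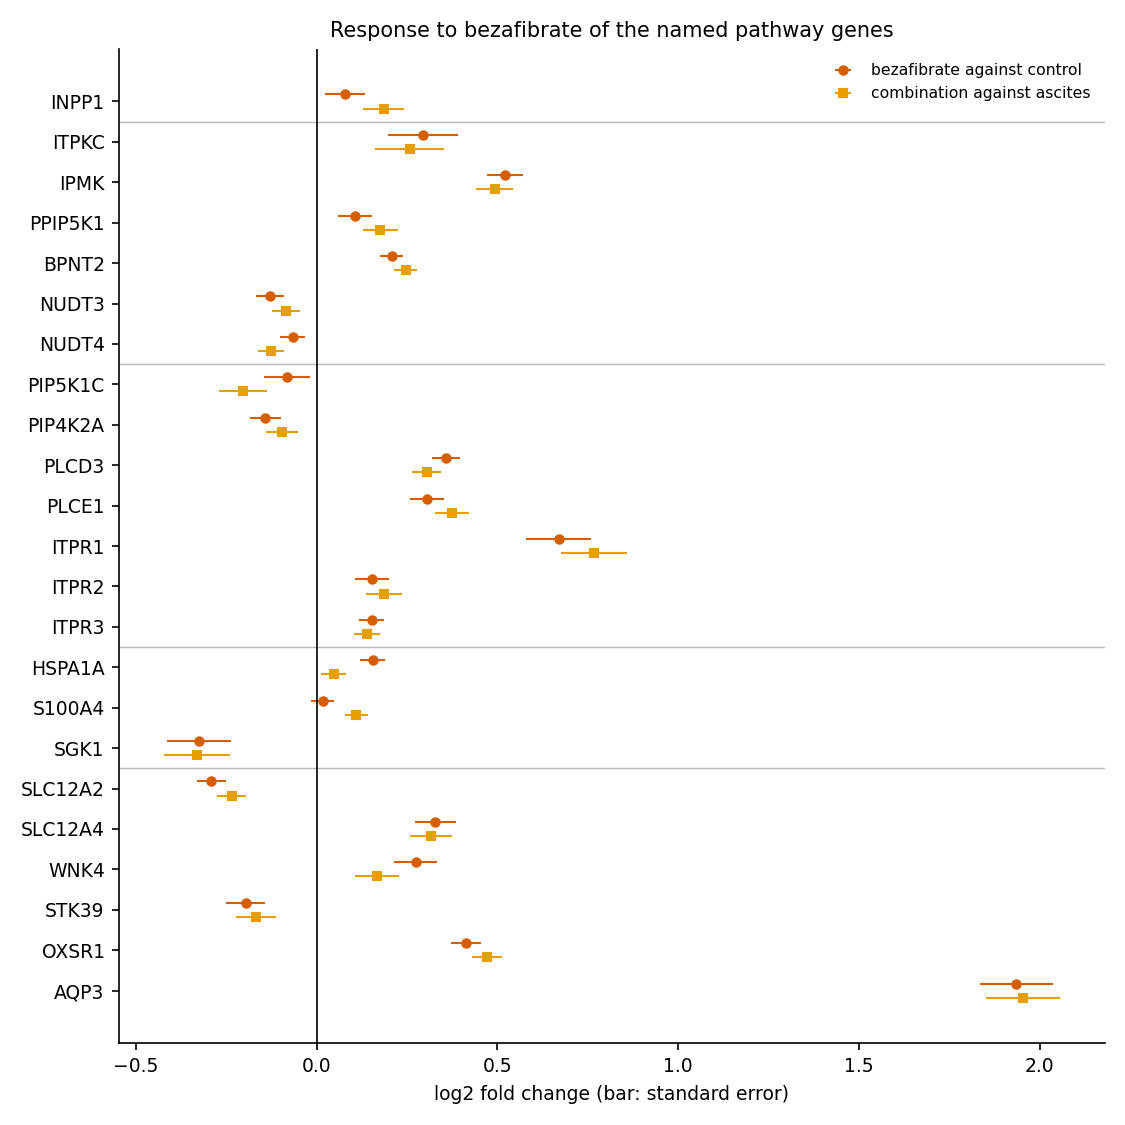
Log2 fold changes of the pathway genes named in the text in bezafibrate against control and in the combination against ascites, with bars for the standard error and grey lines between the lists. AQP3, at 1.94 and 1.95, lies farthest to the right, and SGK1, SLC12A2 and STK39 lie to the left of 0 in both.

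With ascites these lists gave no call. In ascites against control and in the combination against bezafibrate, 0 of the 5, 16, 24, 10 and 19 tested genes were called by edgeR or by DESeq2. Over all 12470 genes edgeR called 0.0882% and 0.128% there, so 0 calls do not set these lists apart. At an unadjusted edgeR p under 0.05 there were 0, 1, 4, 0 and 3 in ascites against control and 0, 0, 1, 1 and 1 in the combination against bezafibrate. Such an unadjusted p was found for 749 and 597 of the 12470 genes.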

How the data were processed

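The authors deposited whole-number counts per gene for each of the 12 libraries, keyed by Ensembl identifier and symbol. Per the submitters' processing notes, which give no order or role, the tools were Trimmomatic 0.39, STAR 2.7.9a, RSEM 1.3.3 and DESeq2 1.28.1 with GRCh38. The annotation release, the strand setting and the handling of reads shared by overlapping genes are not given in the sources used here, so the division of counts between SLC5A3 and MRPS6 is uncertain.

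The genes and lists were chosen with earlier results of these data known. Genes were kept by filterByExpr (minimum count 10, minimum total count 15) in edgeR 4.0.16 under R 4.3.3, which removed 7207 of 19677. All 12 libraries entered 1 quasi-likelihood fit with TMM scaling, 1 mean per group and robust estimation. The same fit was also run on simulated counts whose means and spread came from these data. Calls needed an adjusted p (Benjamini-Hochberg, 12470 genes) under 0.05. Standard errors were the log2 difference over the root of F. DESeq2 1.42.0 was an alternative, beside other scalings, filters, a replicate term, fits of only the groups compared, SLC5A3 and MRPS6 summed, and each library left out. Likeness used log2 CPM with a prior count of 2.

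All 10 genes are named. Of each other list, called genes are named, at most 6 per list and comparison by lowest adjusted p. Transcript lengths are of GENCODE v29 and promoter windows of RefSeq (5 of the 10 genes matched). No 2 replicates were duplicates: the chi-square per degree of freedom was 1.44 to 4.45.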

Additional observations from a re-analysis of the deposited data

How the results depend on the processing

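No direction of SLC5A3 reversed in any setting. With SLC5A3 and MRPS6 summed as 1 gene its log2 differences were -0.13 for ascites, -0.21 for bezafibrate and -0.30 for the combination against control, and 0.0374 for the interaction; this sum adds a gene of another pattern by construction. Leaving out each library in turn gave SLC5A3 -0.27 to -0.19 (ascites against control), -0.15 to -0.06 (combination against bezafibrate), -0.34 to -0.28 (bezafibrate against control), -0.23 to -0.14 (combination against ascites) and -0.46 to -0.37 (combination against control). The called genes other than SLC5A3 stayed at 6 for bezafibrate against control, and ranged from 5 (without combination replicate 1) to 7 (without combination replicate 3) for the combination against ascites and from 5 to 6 for the combination against control.

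Outside SLC5A3, MRPS6 in the combination against ascites passed the threshold with upper-quartile scaling (-0.15, edgeR adjusted p = 0.0343) and with the GC and length trend removed (-0.14, edgeR adjusted p = 0.0211), and with that trend removed also for the drug averaged over ascites (-0.09, edgeR adjusted p = 0.0371). The trend was an alternative chosen after seeing the data. The cause of these shifts was not tested. With DESeq2, ITPKC lost its call in bezafibrate against control (adjusted p = 0.102), as did INPP1 (0.0588), PIP5K1C (0.0806), STK39 (0.0519) and WNK4 (0.12) in the combination against ascites.

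Same-numbered libraries of different groups did not deviate together: their correlations across genes were -0.135 to 0.0613, and in no library was its own number the best match in all 3 other groups. With the replicate number as a block, SLC5A3 differed by -0.23 for ascites, -0.31 for bezafibrate and -0.42 for the combination against control, -0.11 for the combination against bezafibrate and -0.19 for the combination against ascites, and the block left 6 genes called in bezafibrate against control. Of the calls in the report it ended those of WNK4 in the combination against ascites (edgeR adjusted p = 0.0555) and of MRPS16 for the drug averaged over ascites (0.0538). Depth limits SLC6A12, which entered no test.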

Other observations

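Of 11 other genes of the SLC5 family of sodium-coupled transporters, 2 had enough counts to be tested. SLC5A6, the gene of the multivitamin transporter SMVT, had a mean of 129.5 CPM over the 12 libraries, and SLC5A12, a lactate transporter gene, had 3.96 CPM. Neither was called by edgeR or DESeq2 in bezafibrate against control or in the combination against ascites, and neither had an unadjusted edgeR p under 0.05 there. Over all genes edgeR called 17.6% and 17.8% in these comparisons, and 2 genes are too few to tell the family from these shares. SLC5A11, which encodes SMIT2, the other sodium-coupled inositol transporter, had 0 counts in all 12 libraries.

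The genes around the SLC5A3 and MRPS6 locus on chromosome 21 were also read. Of 8 tested genes within 530.7 kb of SLC5A3 in RefSeq, 0 were called by edgeR or DESeq2 in bezafibrate against control and in the combination against ascites, with 2 at an unadjusted edgeR p under 0.05 in each, where 17.6% and 17.8% of all genes were called. In the combination against control, where 18.2% of all genes were called, ITSN1 was called lower (-0.19, edgeR adjusted p = 0.0133) and RCAN1 higher (0.30, edgeR adjusted p = 0.0101), calls that were not refitted under the alternatives. For the drug averaged over ascites edgeR called 2, beside 28.3% of all genes, which is near the background: ITSN1, an intersectin gene, was lower (-0.13, adjusted p = 0.00946), and RCAN1, a calcineurin regulator gene, was higher (0.16, adjusted p = 0.0357), a call lost with DESeq2, with upper-quartile scaling and without any 1 of 7 libraries, at edgeR adjusted p from 0.058 to 0.156.

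Of 4 tested genes of taurine and betaine metabolism, CHDH, the choline dehydrogenase gene that makes the betaine precursor, was called lower in bezafibrate against control (-0.19, edgeR adjusted p = 0.00822), a call lost without control replicate 1 (-0.14, edgeR adjusted p = 0.116) or bezafibrate replicate 2 (-0.15, edgeR adjusted p = 0.0857). In the same list 0 were called by edgeR or DESeq2 in the combination against ascites, where 0 had an unadjusted p under 0.05. Over all genes 17.6% were called in bezafibrate against control and 17.8% in the combination against ascites, and 4 genes are too few to tell the list from these shares.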
